A study of Homo sapiens with 32 samples.

Results

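The 12 pairs of libraries described here compare RNA treated with sodium cyanoborohydride (NaCNBH3) with mock-treated RNA of the same sample in Hep3B cells, an established human liver cancer line, whose NAT10 was depleted or replaced by a substituted form. They were chosen by their titles and make up 24 of the 32 libraries of the series, with 6 genotypes, 2 replicates of each and a mock and a NaCNBH3 library from every replicate. In all 6 genotypes endogenous NAT10 carried a degron tag (FKBP), and every culture was exposed to dTAGV1, which degrades the tagged protein, at 100 nM for 24 h. FKBP cells carried the tag alone and NAT10(-) cells also a control plasmid. Lentiviral NAT10 driven by the EF1A promoter was added in the others, substituted in the helicase domain (K290A, E389L) or in the acetyltransferase, GNAT, domain (H537A, G641E). Blasticidin at 5 µg/ml over 5 days selected for transduction, and none is given for FKBP cells or for the Wildtype cells below. The remaining 8 libraries, from Wildtype cells (parental, with untagged NAT10) and NAT10-WT cells (tagged, with an added copy of unmutated NAT10), received the same degrader and serve only as the NAT10-competent comparison, with 4 pairs. Per the methods, the replicates of transduced cells were independent transductions. Each RNA sample was split after adapter ligation, so that both portions saw hydrochloric acid and NaCNBH3 was the difference. The labels do not say which clone a library came from.

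NAT10 places N4-acetylcytidine (ac4C) at C1337 and C1842 of 18S rRNA and at C12 of leucine and serine tRNAs. NaCNBH3 reduces ac4C to a form that reverse transcriptase reads partly as uridine, which appears as a C>T mismatch. Modified bases that disturb reverse transcription without any reduction, such as 1-methyladenosine, leave mismatches in the mock library as well. The NAT10-deficient libraries are used here to describe what the reduction does when this enzyme is depleted. They cannot be taken as free of its product. Acetylation left from before the 24 h of degrader, or made by remaining NAT10, was not measured in these libraries apart from the readout. By immunoNorthern blot of Hep3B RNA, the paper reports reduced ac4C in tagged cells after longer exposure to the degrader. With the same assay it reports loss of ac4C in mutants of the helicase and GNAT domains. A mismatch is written here as the reference base followed by the base that was read. Levels were computed from the reads at a position, with positions of identical 31-base surroundings summed. The gene-by-gene values at C12, the depth along tRNA genes and the scan of positions for depth were instead taken at single gene copies.

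Counted in units of 1e6, each library held between 1209.9 and 1732 base calls, of which 83.5 to 98.7% lay at the 192382 positions with at least 100 reads in all 24 libraries. After merging of identical copies these formed 90146 sites in 18 RNA classes. In the same unit, base calls averaged 1472 in the mock and 1437 in the NaCNBH3 libraries and were higher after NaCNBH3 in 3 of 12 pairs (exact sign-flip test, p = 0.0903). Liver genes were among the covered mRNAs, with a mean mock depth of 1207 reads in ALB (albumin) and 1380 in APOA2 (apolipoprotein A-II). The degrader acts on the protein, so the depth at NAT10 checks nothing, and the 18S positions below are the check that these data allow. K290A replicate 2 stood apart: the share of its depth in cytosolic tRNAs was lower after NaCNBH3 by 2.48 on the log2 scale, and its mRNA share was higher by 1.12. Batch 1 and batch 2 here stand only for replicate 1 and replicate 2, the number in the titles.

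The sequences below hold the positions at which the largest changes lay. Each is 21 bases of GRCh38, read 5′ to 3′ on the strand of the transcript, with the position in capitals. C1337 lies at chr21:8210967-8210967 and C1842 at chr21:8211472-8211472, both in exons of 18S rRNA genes. MT-TM C34 is the wobble base of mitochondrial tRNA-Met at chrM:4432-4432 and the 31st base of the gene.
18S rRNA C1337: ggtgcatggcCgttcttagtt
18S rRNA C1842: acaaggtttcCgtaggtgaac
MT-TM C34: ctatcgggccCataccccgaa
The next set holds C12 in the D arm of leucine (TRL) and serine (TRS) tRNA genes, at chr5:181187712-181187712, chr16:22195781-22195781, chr17:8120384-8120384, chr16:57299962-57299962, chr1:248873866-248873866, chr10:67764514-67764514 and chr6:26327600-26327600 in the order shown.
TRL-AAG2-1: gtagcgtggcCgagcggtcta
TRL-TAG3-1: gtagcgtggcCgagtggtcta
TRL-TAG1-1: gtagcgtggcCgagcggtcta
TRL-CAG2-1: tcaggatggcCgagcggtcta
TRL-CAA4-1: tcaggatggcCgagtggtcta
TRS-TGA1-1: cagcgatggcCgagtggttaa
TRS-AGA2-1: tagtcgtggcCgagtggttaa
The last set pairs gene copies that differ from a main copy at the changed base. SNORD3B-1 and SNORD3A encode the U3 small nucleolar RNA, and RNU6-25P, RNU6-16P and RNU6-2 are copies of the U6 spliceosomal RNA.
SNORD3B-1 base 78: accgaaaaccCcgaggaagag
SNORD3A, same stretch: accgaaaaccAcgaggaagag
RNU6-25P base 79: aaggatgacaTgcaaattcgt
RNU6-2, same stretch: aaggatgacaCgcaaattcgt
RNU6-16P base 87: cacgcaaattTgtgaagcgtt
RNU6-2, same stretch: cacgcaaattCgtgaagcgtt

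In the NAT10-deficient genotypes NaCNBH3 raised C>T, and it raised A>T by a larger factor. Over all sites with up to 20% mismatch in mock, A>T rose from 211 ± 21.9 to 660.0 ± 103 mismatching reads per 1e6 reads at reference A (mean ± SD, n = 12 libraries each), a 3.14-fold level. The 12 mock libraries lay between 184 and 245 and the 12 NaCNBH3 libraries between 546 and 828, so the groups did not overlap. C>T rose from 819.9 ± 32.5 to 1406 ± 165 per 1e6 reads at reference C. Here too the mock libraries, between 785 and 908, lay below every NaCNBH3 library, between 1221 and 1684. A>G rose from 305 ± 22.2 to 379 ± 27.4 per 1e6, with mock libraries up to 341 and NaCNBH3 libraries from 345. All 3 were higher after NaCNBH3 in 12 of 12 pairs (exact sign-flip test over pairs, adjusted p = 0.00146 over the 12 mismatch types, from p = 0.000488, the smallest that 12 pairs can give).

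**Figure D1:**
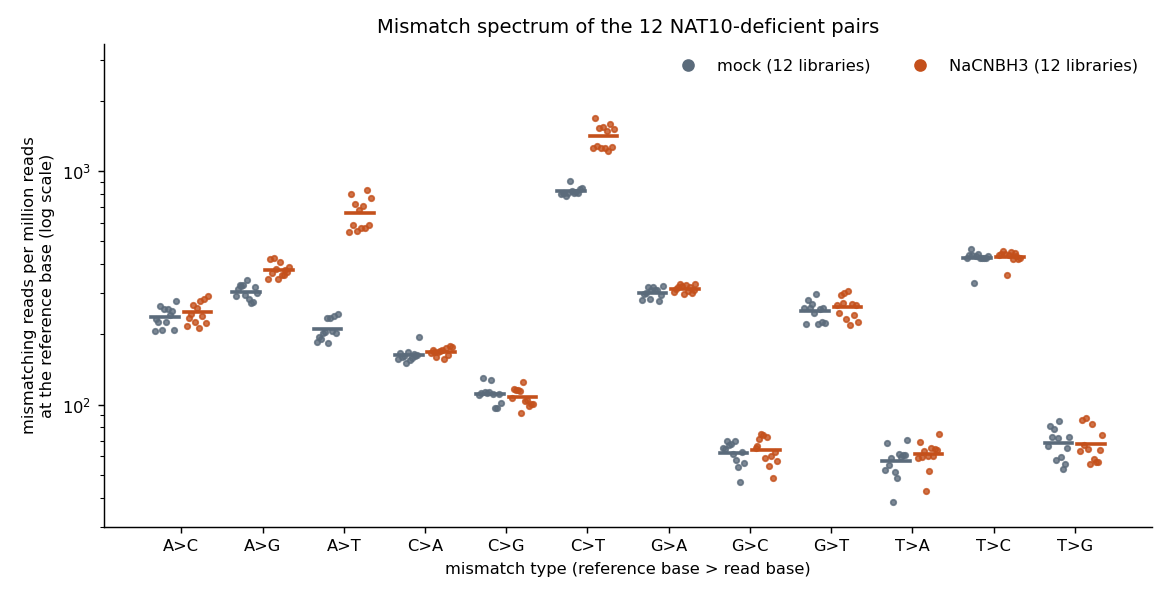
Mismatching reads per 1e6 reads at the reference base (log axis) for each mismatch type. Points are libraries and bars are means of the 12 mock (grey) and 12 NaCNBH3 (orange) libraries. In A>T, C>T and A>G all 12 NaCNBH3 libraries lie above all 12 mock libraries, with the widest gap in A>T.

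The other types moved little. T>A was higher in 12 of 12 pairs but rose only from 57.3 to 61.2 per 1e6 (adjusted p = 0.00146). G>A rose by 12.3 (adjusted p = 0.0199), G>T by 10.6 (adjusted p = 0.0264) and A>C by 9.96 per 1e6 (adjusted p = 0.0268), each in 10 of 12 pairs. C>A, C>G, G>C, T>C and T>G did not pass the test, with mean differences between -3.53 and 5.52 per 1e6.

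The rise was larger in batch 2. In batch 1 the rise of A>T was 373 and in batch 2 526 per 1e6, and that of C>T was 443 and 730.2. For both types batch 2 was higher in all 6 genotypes (exact sign-flip test, p = 0.0313, the smallest that 6 genotypes can give, adjusted p = 0.125). The 4 competent pairs gave a rise of 459 per 1e6 in A>T and of 924 in C>T. The latter exceeded the deficient pairs before but not after adjustment (exact permutation test over 16 pairs, p = 0.0104, adjusted p = 0.125).

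Most sites with many reads took part in the rise. Of the 90146 sites, 88860 had under 0.5% mismatch in both mock and NaCNBH3 libraries on average, a choice made after seeing the data that leaves out strongly modified positions on either side. Over the 19898 adenosines among them, A>T rose from 83.5 to 518 per 1e6, 6.21-fold, and over the 24758 cytidines C>T rose from 480.5 to 999.5 per 1e6, 2.08-fold. The median adenosine went from 0.00177 to 0.0484% T and the median cytidine from 0.0418 to 0.0941% T. Among sites with at least 1000 reads in all 24 libraries, 98.4% of 4967 adenosines and 97.9% of 8181 cytidines had a higher mean T share after NaCNBH3, and in 62.6% and 51.7% of them the share was higher in at least 11 of 12 pairs. A>G rose from 178 to 257 per 1e6, with 81.1% of the adenosines higher but only 7.37% higher in at least 11 pairs. Leaving out the 645 positions of the modification lists reduced the C>T rise over all sites from 586 to 528 per 1e6 and left that of A>T at 449.5. When the median over sites was taken within each library instead, with listed positions left out, the C>T rise was 586 per 1e6 (adjusted p = 0.00586), but that of A>T was 104.3 (adjusted p = 0.75) and that of A>G 0 (adjusted p = 1), so that only 1 mismatch type was called. The site medians given above are of shares averaged over 12 libraries.

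At these low sites the competent genotypes did not differ detectably. Their rise of A>T was 439.6 against 434.6 per 1e6 in the deficient pairs (exact permutation test, p = 0.929). Their rise of C>T was 584 against 519 (exact permutation test, p = 0.529), with individual competent pairs between 373 and 802.

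The same 3 types rose in every RNA class. At low sites A>T, C>T and A>G rose in each of the 18 classes, from the rRNAs and tRNAs to snRNA, snoRNA, mRNA and mitochondrial RNA (exact sign-flip test, highest adjusted p = 0.00639 over classes and types). The rise of A>T was smallest in rRNA pseudogenes, at 290.2 ± 90.3 per 1e6, and 318 ± 94.8 in tRNA, against 495 ± 114 in mRNA and 531 ± 140 in 5S rRNA. The rise of C>T ran from 421 ± 134 in unannotated regions and 430.2 ± 166 in tRNA to 599 ± 176 in lncRNA and 640.4 ± 190 in 5S rRNA, which had only 21 cytidines. The SDs over pairs were of the same order as the spread between classes, and differences between classes were not tested.

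**Figure D2:**
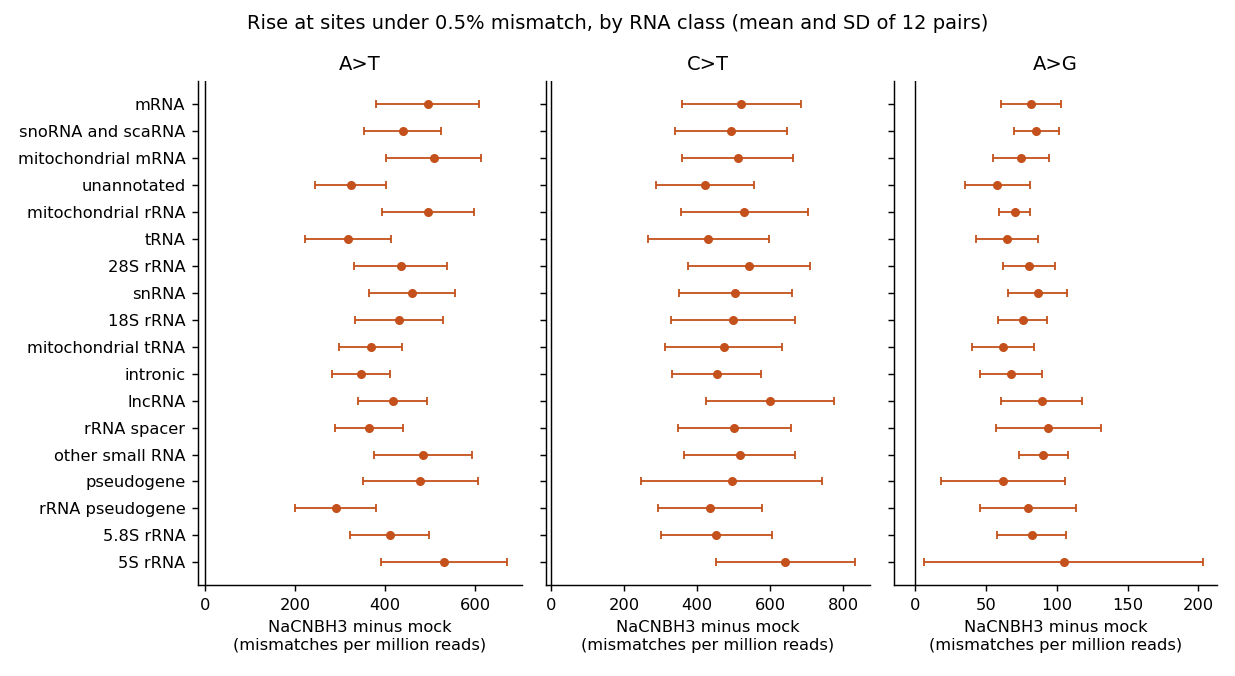
Rise of A>T, C>T and A>G at sites under 0.5% mismatch in each RNA class, as NaCNBH3 minus mock in mismatches per 1e6 reads. Points are means and bars are SDs over the 12 pairs. Every mean lies above 0, between 290 and 531 for A>T and between 421 and 640 for C>T.

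The rise of A>G was concentrated after a 5′ G. After a 5′ G the rise was 139 ± 29.8 per 1e6, against 47.2 at all other adenosines, in 12 of 12 pairs (exact sign-flip test over pairs, adjusted p = 0.000901). A>T went the other way, with 372 after a 5′ G and 469 elsewhere (0 of 12 pairs higher, adjusted p = 0.000901), and was largest after a 5′ T, at 495. The rise of C>T varied less, from 480.3 after a 5′ T to 558 after a 5′ G, and was 549.6 before a 3′ C against 501 elsewhere (12 of 12 pairs, adjusted p = 0.000901). This split was added after the data had been seen.

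The known modifications were then examined as 40 lists of positions, of which 13 rose, none fell and 27 did not pass the test (exact sign-flip test, adjusted over the lists). The median list moved by 0.0535 percentage points. The 2 largest changes were at cytidines. The 5-formylcytidine made by NSUN3 and ALKBH1 at the wobble base of mitochondrial tRNA-Met, C34, went from 0.329 ± 0.208% to 52.5 ± 2.35% mismatch (12 of 12 pairs, adjusted p = 0.00217). The 18S positions C1337 and C1842 together went from 0.224 ± 0.0445% to 9.17 ± 1.44% (12 of 12, adjusted p = 0.00217), and the 13 sites at C12 in leucine and serine tRNAs from 0.264 ± 0.0896% to 1.25 ± 0.499% (12 of 12, adjusted p = 0.00217).

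Of the 40 lists only that of C1337 and C1842 differed between competent and deficient genotypes after adjustment. There NaCNBH3 added 72.96 percentage points, against 8.95 in the deficient pairs (exact permutation test over 16 pairs, p = 0.000549, the smallest possible, adjusted p = 0.022 over 40 lists). For mitochondrial tRNA-Met the competent genotypes gained 51.6 points against 52.2 (exact permutation test, p = 0.643). For C12 they gained 2.57 against 0.989 points (exact permutation test, p = 0.0137, adjusted p = 0.275).

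Most other lists that rose were small in size and of cytidines or adenosines. C1486 of 12S rRNA (N4-methylcytidine) went from 0.102 to 0.180% and C1488 (5-methylcytidine) from 0.0646 to 0.112%. The 5-methylcytidines C3782 and C4447 of 28S rRNA went from 0.0608 to 0.0967% and C48 and C49 of tRNAs from 0.0499 to 0.0901%. The N6-methyladenosines were among them as well, with A4220 of 28S rRNA going from 0.0605 to 0.144% and A1832 of 18S rRNA from 0.0187 to 0.0909%. A37 rose in cytosolic tRNAs (0.0588 to 0.113%) and in mitochondrial tRNAs (0.148 to 0.234%). C32 of tRNAs not on the 3-methylcytidine list rose from 0.255 to 0.334%. These rises lay between 0.0359 and 0.0853 points. At sites under 0.5% mismatch with at least 1000 reads, the median rise was 0.0511 points for C>T and 0.0439 points for A>T. Whether the lists differ from the rise at unlisted sites was not tested.

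The exception was G26 of cytosolic tRNAs (N2,N2-dimethylguanosine), the only list of guanosines to rise. Its mismatch share was 34.1 to 46.04% in the mock libraries, with a median of 42.0%, and 27.2 to 60.8% after NaCNBH3, with a median of 52.4%. The rise of 8.502 points was seen in 10 of 12 pairs (adjusted p = 0.0391) and was 14.8 points in batch 1 and 2.20 in batch 2. It passed the test in only 2 of the 12 fits that left out 1 pair, with adjusted p between 0.00601 and 0.0781. Without K290A replicate 2 it was 10.6 points (adjusted p = 0.00601).

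Other lists with a high mismatch share in mock did not pass the test, among them the following. N1-methyladenosine gave 92.8% mismatch in mock and 93.0% after NaCNBH3 at A1322 of 28S rRNA (adjusted p = 0.625), 82.8% and 83.3% at A2617 of 16S rRNA (adjusted p = 0.256), and 76.4% and 77.4% at A58 of tRNAs (adjusted p = 0.658). The 18S U1248, a hypermodified pseudouridine, had 19.2 ± 1.96% and 20.1 ± 1.43% (9 of 12 pairs, adjusted p = 0.118). Inosine at A34 had 90.6% and 92.0% (adjusted p = 0.297), and 3-methylcytidine at C32 of tRNA-Thr, tRNA-Ser and tRNA-Arg 57.1 ± 6.96% and 54.4 ± 13.01% (adjusted p = 0.541). Dihydrouridine in the D loop of tRNAs, itself a reduced uridine, had 0.0618% and 0.0619% (adjusted p = 0.986). A p above the threshold does not show that these positions did not change.

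**Figure D3:**
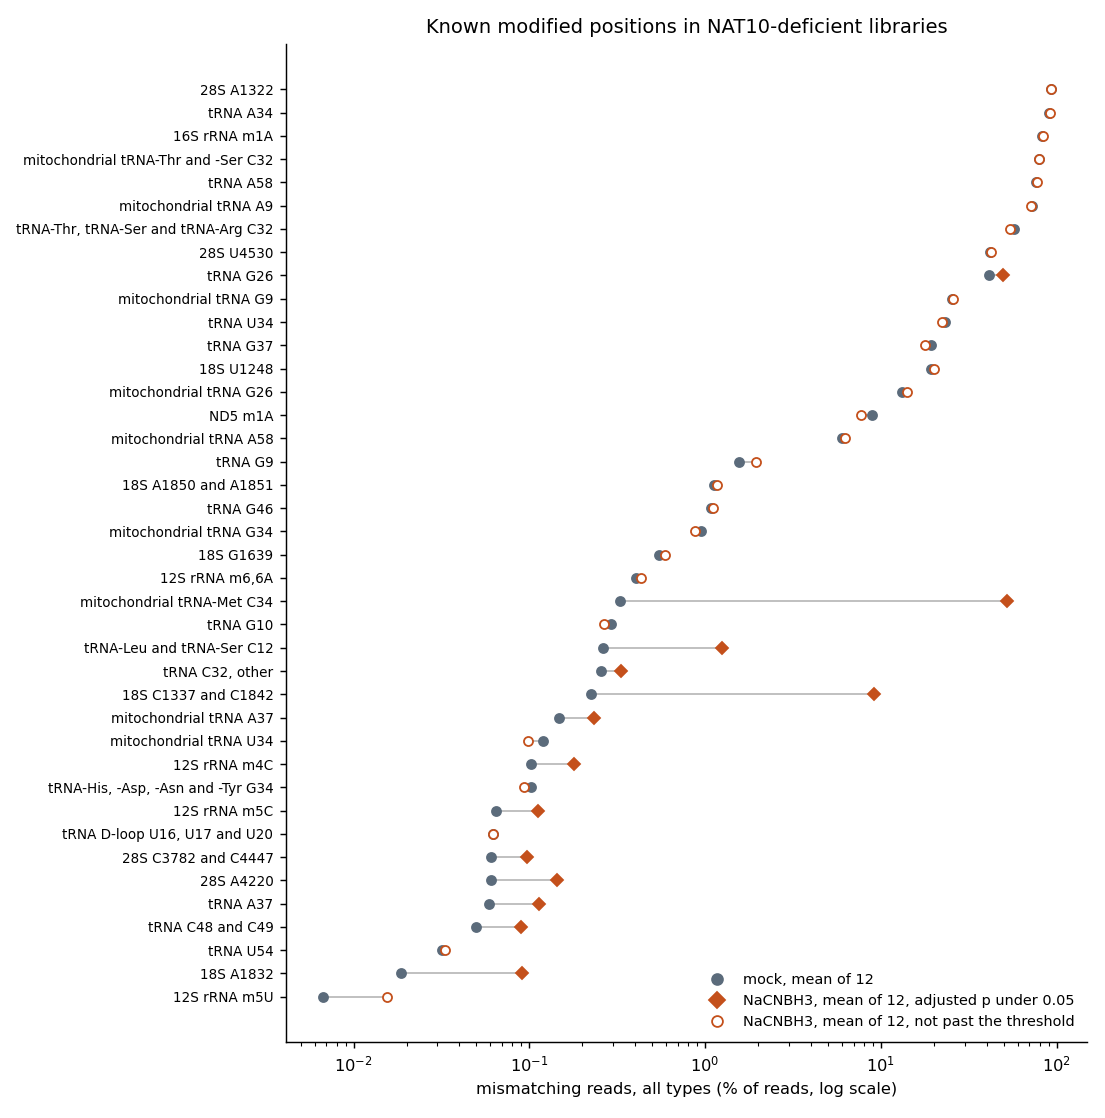
Mean mismatch share (all types, % of reads, log axis) at each of the 40 lists of known modified positions in the 12 mock and 12 NaCNBH3 libraries, ordered by the mock level. Filled diamonds mark the 13 lists that passed the test, and open circles the 27 that did not. Mitochondrial tRNA-Met C34 and 18S C1337 and C1842 show the widest gaps.

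Splitting the lists by mismatch type gave 18 rises and 2 falls among 120 tests. At A1322 of 28S rRNA the total did not pass the test, while A>G went from 81.1 ± 1.05% to 80.2 ± 1.33% (higher in 1 of 12 pairs, adjusted p = 0.0241) and A>T from 10.97 ± 0.657% to 12.1 ± 0.408% (10 of 12, adjusted p = 0.0156). G>C at G37 of tRNAs (1-methylguanosine) fell from 4.33 to 3.84% (0 of 12 pairs higher, adjusted p = 0.00533). G>A at G1639 of 18S rRNA (7-methylguanosine) rose from 0.195 to 0.258% (12 of 12, adjusted p = 0.00533), while the list as a whole did not pass the test (adjusted p = 0.0586).

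Single sites were tested for each mismatch type as log2 odds of the mismatch, with the pair as a block (limma, adjusted over 1022 tests). They needed a mean share of at least 1% over all 24 libraries, mock and NaCNBH3 together. A site could thus enter through the treatment in which its share was higher, as MT-TM C34 and 18S C1337 did. The counts of rises and falls therefore depend on this filter. Of the 1022 tests 29 rose (2.84%) and 19 fell (1.86%), 48 in all, against 82 without K290A replicate 2. C>T supplied 15 of the 29 rises from 155 tests. Types follow the genome base, so the rise of T at base 78 of SNORD3B-1 counts as C>T, although nearly all mock reads there had A. Among the 300 tests at listed modified positions 8 rose and 1 fell. When the minimum share, over the same 24 libraries, was lowered to 0.1%, 6670 tests could be made. Of these 1006 rose (15.1%) and 37 fell. Among the rises 913 were C>T (23.2% of 3928 C>T tests) and 60 A>T (18.9% of 317). Of the C>T tests 91.8% had a change above 0. In 28S rRNA 69.7% of 323 C>T tests were called and in mRNA 6.59% of 1107. The median change was 0.85 in 28S rRNA and 0.43 in mRNA on the log2 odds scale. Depth differed widely: 4141 sites of 28S rRNA had at least 19000 reads at a copy in some library, against 1 of mRNA. The share called depends on depth, and the classes were not compared by a test.

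At C1337 the mock libraries had between 0.163 and 0.290% T, with a median of 0.209%. The NaCNBH3 libraries had between 6.32 and 11.99%, with a median of 9.88%. Each of these libraries held at least 152496 reads there, summed over identical gene copies. Such copies can share reads, and each has a depth ceiling in the files. No deficient library came near the competent ones, at 70.4 and 91.1% in Wildtype and 62.3 and 72.9% in NAT10-WT. The lowest levels after NaCNBH3 were those of G641E, at 6.32 and 7.39%, and the highest was NAT10(-) replicate 2, at 11.99%. The change was 5.59 ± 0.10 (log2 odds, SE) in the deficient genotypes (adjusted p = 2.71e-13). It was larger by a further 2.58 ± 0.35 in the competent genotypes (limma adjusted p = 0.00161). Of 1020 sites tested in this way, C1337 was the only one (0.098%) past the threshold for a difference between competent and deficient genotypes. On simulated data this test recovered 68% of shifted sites, so sites that it did not call may differ as well.

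C1842 had 0.0392 to 0.235% T in mock, with a median of 0.0973%, and 2.67 to 9.78% after NaCNBH3, with a median of 6.55%. The competent libraries reached 74.1 and 90.6% in Wildtype and 57.0 and 71.1% in NAT10-WT. Batch 2 was above batch 1 within each of the 6 genotypes, as in E389L with 2.67% in replicate 1 and 8.58% in replicate 2. The change was 5.94 ± 0.24 (adjusted p = 1.38e-09), 5.46 in batch 1 and 6.42 in batch 2. The further 2.36 ± 0.52 in the competent genotypes did not pass the test over all sites (adjusted p = 0.168). In mock the competent libraries already had more T, on average 1.13% at C1337 and 1.01% at C1842, than any deficient mock library.

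MT-TM C34 had the largest change of the 1022 tests. T made up 0.202 to 0.959% of reads in mock, with a median of 0.257%, and 47.1 to 56.8% after NaCNBH3, with a median of 52.2%. The competent libraries lay inside that range, at 51.5 and 50.8% in Wildtype and 53.3 and 51.9% in NAT10-WT. The change was 8.57 ± 0.18 (adjusted p = 6.42e-13). The lowest level, 47.1%, was that of K290A replicate 2. Below the 1% minimum, C52 of MT-TK (mitochondrial tRNA-Lys) showed a smaller change of the same sign, from 0.0387 to 0.888% T (4.61 ± 0.29, 12 of 12 pairs, adjusted p = 7.63e-07).

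At C12 the level depended on the tRNA. TRL-TAG3-1 had 0.566 to 1.94% T in mock, with a median of 1.08%, and 1.79 to 13.4% after NaCNBH3, with a median of 6.27% (log2 odds change 2.42 ± 0.26, 11 of 12 pairs, adjusted p = 5.14e-05). TRL-TAG1-1 had 0.249 to 0.918% and 0.617 to 5.47%, with medians of 0.586 and 3.02% (2.38 ± 0.26, adjusted p = 5.06e-05). In both genes K290A replicate 2 was the pair whose share was lower after NaCNBH3, at 1.94 and 1.79% in TRL-TAG3-1 and 0.858 and 0.617% in TRL-TAG1-1, from 336 and 162 reads after NaCNBH3. TRS-TGA1-1 went from 0.0181 to 1.30% in 12 of 12 pairs. TRL-AAG2-1 went only from 0.0252 to 0.285%, and TRS-AGA2-1 had 0.0804 and 0.0865%.

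**Figure D4:**
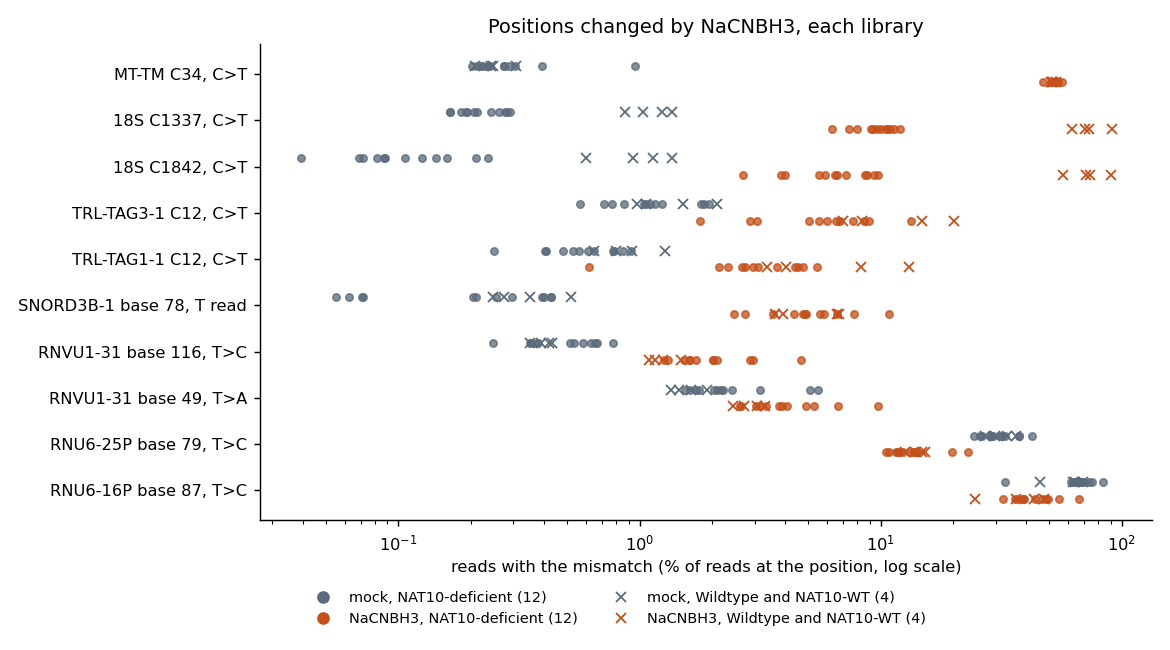
Share of reads with the mismatch (%, log axis) at 10 positions in every library. Circles are the 24 NAT10-deficient libraries, crosses the 8 Wildtype and NAT10-WT libraries, grey mock and orange NaCNBH3. The competent crosses stand apart after NaCNBH3 at 18S C1337 and C1842, and lie among the circles at MT-TM C34, SNORD3B-1 and RNU6-25P.

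The depth at C12 relative to the bases on its 3′ side was lower after NaCNBH3 in most of these genes. Reverse transcription runs from the 3′ to the 5′ end of the RNA, so reads that end early lower the depth on the 5′ side. In TRL-AAG2-1 the depth at base 12 was 92.7 to 98.2% of that at base 15 in mock and 20.1 to 47.2% after NaCNBH3, with a median of 30.3%. All 12 NaCNBH3 libraries lay below all 12 mock libraries. Both parts of this ratio moved: the mean depth at base 12 of TRL-AAG2-1 went from 4108 to 2836 reads and was higher after NaCNBH3 in 1 of 12 pairs, while that at base 15 went from 4252 to 8090 reads and was higher in 10 of 12. In TRL-AAG2-3 the depth at base 12 went from 4630.4 to 3377 and that at base 15 from 4767 to 8409 reads, and in TRL-TAG1-1 from 1897 to 1348 and from 1936 to 1853. These are read counts not scaled for library depth. The ratio in TRL-AAG2-3 was 97.4 ± 1.38% in mock and 40.8 ± 8.14% after NaCNBH3. TRL-TAG3-1 went from 98.3 to 58.8 ± 9.94%, TRL-TAG1-1 from 98.2 to 74.9 ± 7.83%, TRL-CAG2-1 from 96.6 to 79.1 ± 8.87%, TRL-CAG1-7 from 98.7 to 80.3 ± 10.1% and TRL-CAG2-2 from 99.03 to 89.4 ± 6.63% (0 of 12 pairs higher in each, exact sign-flip test, adjusted p = 0.000837 over 12 genes). TRS-TGA1-1 went from 98.7 to 94.1 ± 3.75% (adjusted p = 0.00146).

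The remaining 4 genes did not pass the test. The ratio was 96.9% in mock and 96.3% after NaCNBH3 in TRL-CAA1-1. Likewise TRL-CAA1-2 had 99.025 and 98.8%, TRL-CAA4-1 98.8 and 98.6% and TRS-AGA2-1 98.2 and 97.7% (adjusted p from 0.0827 to 0.269). TRL-CAA1-1, TRL-CAA1-2 and TRL-CAA4-1 are the only genes scored here that have an intron. Whether their reads came from unspliced precursors was not tested. The order of the genes by this ratio was not that of the T share: after NaCNBH3 TRL-AAG2-1 had a ratio of 32.99% and 0.285% T, and TRL-TAG3-1 58.8% and 6.34%. The windows of TRL-AAG2-1 and TRL-TAG1-1 printed above are identical. This ratio was added after the data had been seen, and genes of identical sequence share reads, 4 genes in the case of TRL-AAG2-1.

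The ratio of base 12 to base 15 was lower in the competent genotypes in TRL-AAG2-1, at 18.01% against 32.99% (exact permutation test, adjusted p = 0.0165), and in TRL-AAG2-3, at 26.5% against 40.8% (adjusted p = 0.0165). There too base 15 of TRL-AAG2-1 gained reads, from a mean of 3778 to 7319 in 4 of 4 pairs, and base 12 went from 3673 to 1258. The ratio in TRL-TAG3-1, 49.4% against 58.8%, did not pass the test (adjusted p = 0.175). The rise of the T share at C12, tested gene by gene, was larger in the competent genotypes in 8 of the 12 genes, among them TRL-TAG3-1, with 12.6% T after NaCNBH3 against 6.34% (adjusted p = 0.0377), and TRS-TGA1-1, with 5.00% against 1.30% (exact permutation test over 16 pairs, adjusted p = 0.0132).

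**Figure D5:**
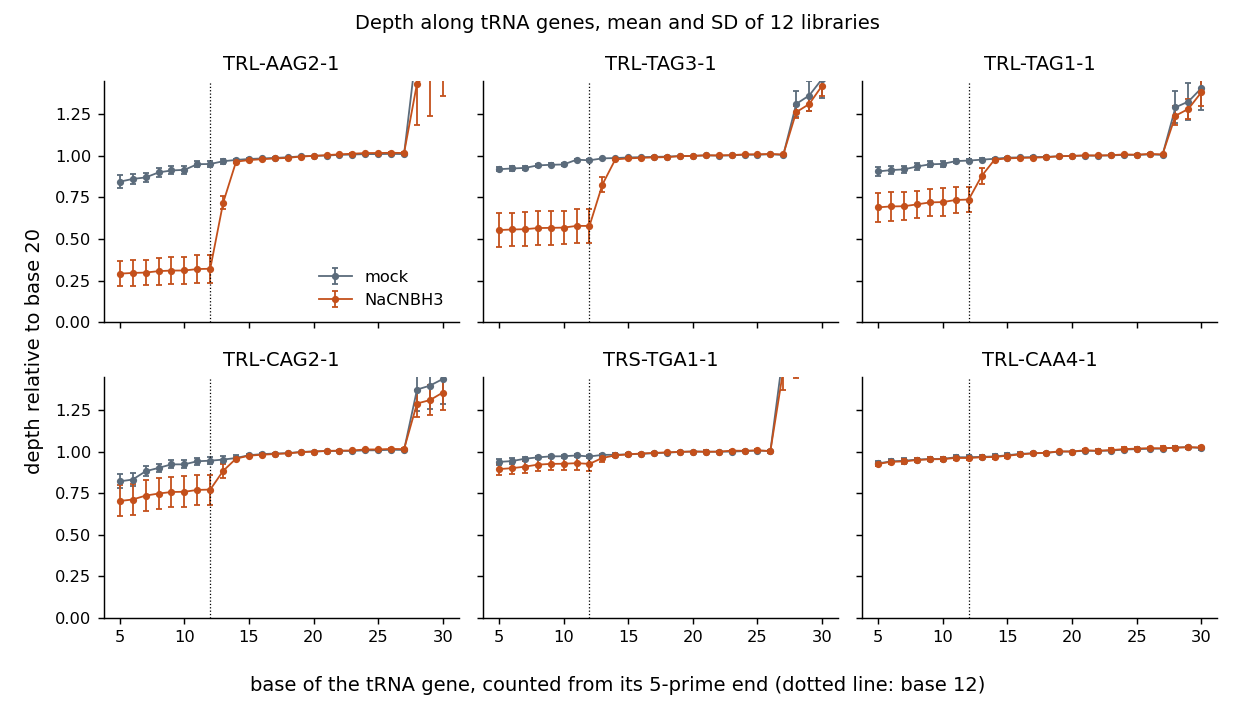
Depth along 6 tRNA genes relative to base 20, against the base counted from the 5′ end of the gene. Points are means and bars SDs of 12 libraries in mock (grey) and NaCNBH3 (orange). Values above the upper limit of the axis are not drawn. The NaCNBH3 curves drop between bases 15 and 12 in TRL-AAG2-1, TRL-TAG3-1 and TRL-TAG1-1. They follow the mock curve in TRL-CAA4-1, a gene with an intron.

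A scan over 141150 positions, comparing the depth at each with that 3 bases further 3′, found 11 positions where it fell by at least 0.5 on the log2 scale in every pair. All 11 lay at bases 10 to 13 of 5 tRNA-Leu genes. These were TRL-AAG2-1, TRL-AAG2-2, TRL-AAG2-3, TRL-AAG2-4 and TRL-TAG3-1. TRL-AAG2-1 and TRL-AAG2-3 each belong to 4 genes of identical sequence, which share reads. At the same threshold 9 positions rose in every pair, by up to 0.74 at an unannotated position. Base 2458 of RNA28SN2 was among them, at 0.60. Across the 36 modification lists that could be scored with 5 bases on either side, C12 had the largest fall, from -0.12 in mock to -0.82 after NaCNBH3 on the log2 scale (0 of 12 pairs higher, adjusted p = 0.0176). The step at G9 of tRNAs fell by 0.10 and that at G10 fell by 0.058, with windows that overlap base 12, and that at C1488 of 12S rRNA fell by 0.011. Steps rose at A34 of tRNAs by 0.10 and at G9 of mitochondrial tRNAs by 0.13. With 10 bases on either side only 1 list passed, and the directions turned at G9 of tRNAs (0.014) and of mitochondrial tRNAs (-0.047). Over all 12 pairs the step at C1337 and C1842 was not called in the deficient genotypes (-0.020, adjusted p = 0.123). Without K290A replicate 2, 19 steps passed, that one among them. At C1337 and C1842 the competent pairs had -0.29. MT-TM C34 was not among the 36 lists.

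Several of the other changed sites lay where gene copies differ. At base 78 of SNORD3B-1 (chr17:19061989-19061989) the genome has C, while 97.4 to 98.7% of reads in mock had A, the base of SNORD3A at this point (A78C, counted from the 5′ end of the RNA, with the SNORD3A base before the number). After NaCNBH3 A made up 85.1 to 95.8% of reads and T rose from 0.0550 to 0.431% in mock to 2.47 to 10.9%, with medians of 0.232 and 4.88%. T was higher in 12 of 12 pairs (log2 odds change 4.61 ± 0.38, adjusted p = 3.72e-06) and G also rose, from 0.841 to 1.4485%. The competent libraries, at 3.63 to 6.74% T, lay in the same range.

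In all, 132 tests had over 90% mismatch in mock, and 9 of these fell while none rose. In 8 of the 9 nearly all reads had A where the genome has another base, among them RNU6ATAC2P base 52 (A52C), RN7SL5P base 26 (A26G) and 4 sites of the mitochondrial rRNAs MT-RNR1 and MT-RNR2, with the base of RNU6ATAC and RN7SL1 given first. The T share rose in at least 11 of 12 pairs at 7 of the 8, by 0.0392 to 5.13 points over all 8. The ninth was read as C.

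At base 79 of RNU6-25P (chr3:195214865-195214865), where RNU6-2 has another base (C79T, RNU6-2 first), 24.5 to 42.3% of reads had C in mock and 10.6 to 23.1% after NaCNBH3. The medians were 30.2 and 12.9%, the C share was lower in every pair, and the groups did not overlap. The change was -1.52 ± 0.07 (log2 odds, adjusted p = 6.48e-09). RNU6-16P at base 87 (C87T) went from 66.1 ± 12.2% to 44.4 ± 9.60% C (adjusted p = 0.00105) and base 66 of RNU6-13P from 32.8 to 20.6% (adjusted p = 7.21e-06). Changes at RNVU1-31, a copy of the U1 spliceosomal RNA, ran the other way. There T>C at the base that differs from RNU1-1 by C116T rose from 0.505 to 2.14% (2.07 ± 0.09) and T>A at base 49 (A49T) from 2.61 to 4.44% (0.81 ± 0.08), both in 12 of 12 pairs. How alignment shared reads among such copies was not tested.

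The remaining rises were small, such as C462 and C517 of 18S rRNA, from 1.49 to 1.78% and from 1.20 to 1.38%, C60 of RNU6-2, from 1.29 to 1.4955%, and C26 of RNA5SP202, a copy of 5S rRNA, from 0.497 to 1.62%. The falls included G10 of TRL-TAG3-1, from 1.63 to 0.847% A, 2 bases from C12, and C50 of TRS-GCT4-3, from 10.9 to 7.03% A.

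Within single genotypes, Fisher's exact test on reads with both replicates called in the same direction, the kind of test named in the methods, called the most tests in NAT10(-), 85 (8.32%), then 68 in FKBP (6.65%), 60 for K290A (5.87%), 56 for G641E (5.48%), 51 for H537A (4.99%) and 49 for E389L (4.79%). In all 189 (18.5%) were called in any genotype, but only 9 (0.881%) in all 6. These were the rises at MT-TM C34, 18S C1337 and C1842, base 78 of SNORD3B-1 and both sites of RNVU1-31, and the falls at base 79 of RNU6-25P, base 66 of RNU6-13P and the A share of SNORD3B-1. The test covers counting error only and takes reads summed over identical copies as independent.

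A direct test of whether the response differed among the 6 genotypes called 0 of 1022 tests (0%, limma moderated F test), and 44 had an unadjusted p under 0.05. With 2 pairs per genotype this test recovered 0% of simulated shifts, so a count of 0 does not show that the genotypes responded alike.

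For relative depth, none of the 18 RNA classes passed the test (exact sign-flip test, lowest adjusted p = 0.103). Spacers of the rRNA precursor went from 38.1 ± 6.11% to 36.2 ± 5.70% of depth and were lower in 11 of 12 pairs, and tRNAs from 4.80 ± 1.93% to 5.03 ± 2.58%. The mean log2 change of tRNAs was -0.12, and 0.093 without K290A replicate 2. Among 502 genes 4 rose (0.797%) and 0 fell, with 58 at an unadjusted p under 0.05 in either direction (limma on log2 mean depth relative to the median gene). All 4 were U6 copies: RNU6-32P by 0.81 ± 0.08, RNU6-12P by 0.70 ± 0.06, RNU6-13P by 0.67 ± 0.07 and RNU6-25P by 0.63 ± 0.07, each in 12 of 12 pairs. In the competent genotypes they rose by 0.62 to 0.77. Of the 12 U6 genes covered 10 were above 0, with a median of 0.11, and the 5th to 95th percentile of all genes ran from -0.23 to 0.25. Of the copies named above for a lower C share, RNU6-25P and RNU6-13P are among these 4, and RNU6-16P is not, with a depth change of -0.07 ± 0.16 (limma adjusted p = 0.799).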

How the data were processed

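RNA of Hep3B cells was sequenced after NaCNBH3 or mock treatment in 32 libraries, of which the 24 from NAT10-deficient genotypes are described and 8 serve for comparison. The authors deposited, per library, read counts of each base at each position of GRCh38. The submitters' processing notes name STAR 2.7.9a, SAMtools 1.6, UMI-tools 1.1.5 and cutadapt 4.2. Positions with at least 100 reads in all 24 libraries were kept, and positions with identical 31-base surroundings were merged. The gene-by-gene values at C12, the depth along tRNA genes and the depth scan used unmerged positions. Depth in the files has a ceiling, and 11289 sites near it (over 19000 reads) were left out of depth comparisons. Sequences are from GRCh38.

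Pairs of one genotype and replicate were compared by exact sign-flip tests over 12 pairs (4096 flips) or with limma 3.58.1 in R 4.3.3 on log2 odds with 0.5 added to the counts and the pair as a block. Tests were two-sided with Benjamini-Hochberg adjustment and a threshold of 0.05. The pairing comes from the methods, by which each RNA sample was split. Competent and deficient pairs were compared by exact permutation (1820 splits) or limma. Scripts used Python 3.11.15, numpy 2.4.6, scipy 1.17.1 and pandas 2.3.3. Simulated data for the site test held 200 changed sites among 1022, with a larger or a smaller shift. The test recovered 87% of those with the larger shift, with 9 false calls, and recovery at the smaller shift is not given here. Fisher's test recovered 65.5% of 200 with 0 false calls, and the depth test 100% of 100 among 502 genes with 8. Named sites are the 12 largest changes in each direction among called sites of the same sign in at least 11 pairs, with fixed positions and the largest of each mismatch type. Others that are named were chosen after their values were seen. The members and lists were chosen with earlier results of these data known. Counting intervals and Fisher's test cover counting error only. P-values over pairs measure the spread between these cultures. Alternatives included other count minimums, copy handling, single batches, omission of the pair block and of each replicate.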

Additional observations from a re-analysis of the deposited data

Results flagged for a closer look

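The effect of NaCNBH3 differed between the competent genotypes (Wildtype and NAT10-WT) and the NAT10-deficient genotypes in 12 results, each by a test of the difference itself. At 18S C1337 and C1842 together the rise was larger by 64.01 percentage points, and at C1337 alone by 2.58 on the log2 odds scale. The change in the depth at C12 relative to base 15 differed by -15.4 points in TRL-AAG2-1 and by -14.7 points in TRL-AAG2-3. The rise of the C>T share at C12 was larger by 0.956 points in TRL-AAG2-1, 0.593 in TRL-AAG2-3, 5.98 in TRL-TAG3-1, 3.62 in TRL-TAG1-1, 2.95 in TRL-CAG2-1, 1.04 in TRL-CAG2-2, 3.36 in TRS-TGA1-1 and 0.273 in TRL-CAA1-2. The competent side rests on 4 pairs. The 12 results are not independent: C1337 is also part of the first, and genes of identical sequence share reads.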

How the results depend on the processing

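Taking the median over sites, with known positions left out, gave a rise of 104.3 per 1e6 reads for A>T (adjusted p = 0.75) and 0 for A>G, and 1 called mismatch type instead of 7. Without the replicate block, 3 mismatch types, 39 sites and 0 genes by depth were called. Called sites numbered 1043 at a minimum share of 0.1%, 162 with each copy counted, 122 in batch 1 alone and 15 in batch 2 alone. The 48 called sites kept their sign in both batches, with 31 and 13 called. Fisher calls in any genotype numbered 579 in batch 1, 511 in batch 2 and 821 at 0.1%. With 5 added to counts, 2 sites differed in competent genotypes. With at least 50 sites, 1 gene changed in depth. With sites below 10000 reads, 4 classes changed, and other small RNA turned to -0.0799. With 10 bases on either side, 1 depth step was called, and tRNA G9 turned to 0.014 and mitochondrial tRNA G9 to -0.047. T>G turned to 1.39 per 1e6 reads at sites under 0.5%, and TRL-TAG1-1 base 35 to -0.38 with each copy counted or the copy with the most reads. Leaving out 1 pair gave 40 to 82 sites (82 without K290A replicate 2), 4 to 10 genes by depth (10 without it), 2 to 19 depth steps (19 without it), 12 to 19 lists, 0 to 3 classes (3 without H537A replicate 1), 5 to 8 mismatch types and 1 to 2 competent differences (2 without NAT10-WT replicate 1). The rises then ran from 435.7 to 458.7 (A>T), 560.0 to 603 (C>T) and 70.5 to 76.6 per 1e6 reads (A>G), 8.79 to 9.23 points at C1337 and C1842, 51.8 to 52.7 at mitochondrial tRNA-Met C34, 0.894 to 1.06 at C12, and the C12 step from -0.73 to -0.66. The causes were not tested.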

Other observations

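Among tests with a mean share between 0.1 and 1%, adenosines of tRNA-Gly were among the larger changes. Bases are counted along the gene. The 3 that follow were picked from the largest changes. With mock shares under 0.1%, they passed the minimum only through the NaCNBH3 libraries, so that only a rise could bring them in. A>T at A67 went from 0.0107 to 0.205% in TRG-GCC1-4 (log2 odds change 3.84 ± 0.37, 12 of 12 pairs, limma adjusted p = 4.57e-05) and from 0.0181 to 0.293% in TRG-GCC1-5 (adjusted p = 0.000174), and at A66 of TRG-GCC2-1 from 0.0217 to 0.183% (adjusted p = 0.000207). T>C at base 31 of MT-TE, the wobble base U34 of mitochondrial tRNA-Glu, went the other way. It fell from 0.205 to 0.0432% (lower in 11 of 12 pairs, limma adjusted p = 0.00285). This site passed the minimum through the mock libraries.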
